A study of Mus musculus with 9 samples.

Results

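The genes described are Gaa, the lysosomal enzyme gene disrupted in a mouse model of Pompe disease, and 3 genes that act on the same glycogen, Stbd1, Epm2a and Nhlrc1. They were taken from the deposited table by gene symbol, 4 genes on 5 transcript lines out of 18062 genes on 23665 lines. The tissue was gastrocnemius, a muscle of the calf, of which the white part, rich in fast glycolytic fibres, was taken. There were 5 libraries from Gaa knock-out mice (GAA knock-out, 5 months old) and 4 from wild-type mice (2 labelled 5 months and 2 labelled 6 months old). In the knock-out, exon 6 of Gaa was disrupted, with loxP sites in the introns on either side of it. Both genotypes are labelled as mixed background, which the protocol gives as BL6/129j, inbred by mating brothers with sisters. The 4 wild-type columns carry the genotype but no age, so both ages form 1 arm, and genotype and the difference in age cannot be fully told apart. No label ties a library to a mouse, and the p-values below therefore rest on the scatter among libraries, which may be partly technical.

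Glycogen is stored mainly in the cytosol, where glycogen phosphorylase and debranching enzyme break it down, but part of it is carried into lysosomes. There acid alpha-glucosidase, the product of Gaa, cuts it to glucose, and without this enzyme glycogen-filled lysosomes enlarge in muscle. Stbd1 encodes a membrane protein with a starch-binding domain that binds glycogen and autophagy proteins of the Gabarap family and is held to carry glycogen to lysosomes. Epm2a encodes laforin, a phosphatase that binds glycogen and removes phosphate from it. Nhlrc1 encodes malin, a ubiquitin ligase that works in a complex with laforin, and loss of either causes Lafora disease, in which poorly branched glycogen accumulates.

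The deposited values are RPKM, read counts scaled by the authors to transcript length and library size. By the step that a single read makes in low values, 1 RPKM of a 1 kilobase transcript stood for about 17.7 to 37.6 reads in knock-out libraries, lowest in ko3, and for 37.2 to 64.3 reads in wild-type libraries. The table total was 349239 to 374056 RPKM in the knock-out libraries and 315337 to 327517 RPKM in the wild-type libraries, and the median log2 change over tested genes was 0.12. Skeletal muscle markers fitted the labelled tissue: the 11 listed ones summed to 90107 to 102407 RPKM in the knock-out and 84203 to 90892 RPKM in the wild type and were led by fast-fibre genes. Of these 11, 4 were higher and none lower. The counts were 2 and 0 without wt4, 4 and 1 without wt3, and 2 and 1 with centring or equal totals. Among the 4 was Myh2, the myosin of fast oxidative fibres (364 ± 68.7 RPKM in knock-out libraries, against 158 ± 48.2 RPKM in wild-type libraries, limma adjusted p = 0.00037). Myh7, that of slow fibres, was another (31.9 ± 18.7 RPKM, against 9.004 ± 6.79 RPKM, with overlap, limma adjusted p = 0.013, SD, n = 5 and 4 for both). The others were Ckm (1.23-fold, limma adjusted p = 0.022) and Mylpf (1.20-fold, limma adjusted p = 0.037). The fast-fibre myosin Myh4 stood at 0.862 of the wild type on the log scale and did not pass the test (limma adjusted p = 0.082). Macrophage markers summed to 81.8 to 139 RPKM in the knock-out and 33.5 to 44.0 RPKM in the wild type, with 12 of 13 tested higher and none of the 15 at 0 in any group mean. Mpeg1, Adgre1 and Trem2 passed the filter on low values only through the knock-out, so this count was partly set by the filter. Endothelial markers were lower in 7 of 10 (summed 29.1 to 50.9 RPKM in the knock-out and 41.6 to 68.2 RPKM in the wild type), and in 4 of 10 without wt3 and wt4. They were lower in 9 of 10 under each of the 3 scalings, without ko2, or without wt1 and wt2. Adipocyte markers were lower in 3 of 7, but in 5 of 7 without ko4, without wt2 or under each of the 3 scalings, and without wt3 there were 2 higher and 2 lower. Fibroblast markers were higher in 3 of 7, with 2 higher and 1 lower after quantile normalization or at equal totals. The part of these cells and of fibre types in the results was not tested. Among the wild types, wt1 and wt2 lay closest to each other (median absolute log2 difference 0.106 per gene) and so did wt3 and wt4 (0.0993), against 0.144 to 0.159 across the pairs. In whole muscle, a change in the number of cells of a type and a change in RNA per cell cannot be told apart.

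Of the 4 genes, 3 differed between the genotypes: Gaa and Epm2a fell and Stbd1 rose, while Nhlrc1 did not pass the test. The background is high, since 51.8% of the 11032 genes tested passed the same threshold (limma, Benjamini-Hochberg adjusted p below 0.05), 37.0% higher and 14.8% lower in the knock-out. The groups did not overlap for the same 3 genes, and over all tested genes this held for 42.4%, 30.9% above and 11.4% below. Gaa is the disrupted gene that sets the genotypes apart, so its call is no finding, and only Stbd1, Epm2a and Nhlrc1 were open. The share of the 4 genes that changed is therefore no result by itself, and their sizes and levels are given below.

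**Figure D1:**
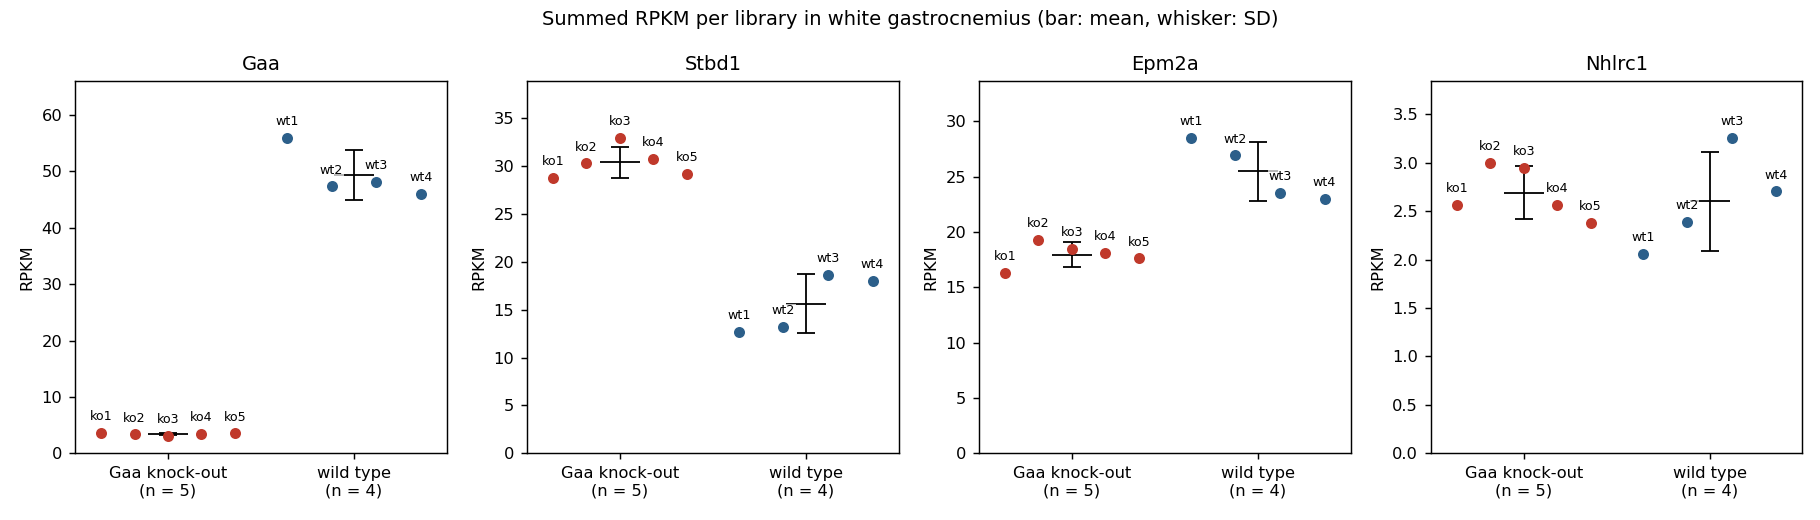
Summed RPKM of Gaa, Stbd1, Epm2a and Nhlrc1 in each library, with Gaa knock-out libraries (n = 5) left of wild-type libraries (n = 4), bars at the mean and whiskers of 1 SD. Gaa lies at 3.11 to 3.64 RPKM in the knock-out, Stbd1 is higher and Epm2a lower in every knock-out library than in any wild-type library, and Nhlrc1 overlaps.

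Gaa was the targeted gene, so its level checks the labels. The knock-out libraries ko1 to ko5 had 3.64, 3.40, 3.11, 3.51 and 3.55 RPKM, against 56.0, 47.3, 48.2 and 46.0 RPKM in wt1 to wt4. Every library labelled knock-out was far below every library labelled wild type, so the targeted gene matched the labels in all 9. Gaa fell 13.9-fold (log2 change -3.80, SE 0.07, limma adjusted p = 1.8e-11). Its two-sided exact permutation test gave p = 0.0079, which 5 against 4 libraries cannot go below. Only 3 of the 11032 tested genes had a more negative log2 change. About 199 to 470 reads per knock-out library lay behind the remaining signal, against 6334 to 11004 per wild-type library. Gaa moved to a mid-range level among tested genes: the knock-out mean stood above 40.6% of them, and the wild-type mean above 93.7%.

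The disrupted exon is short. In the GENCODE annotation of the assembly GRCm38, which is not the mm9 build of the deposited values, exon 6 of Gaa lies at chr11:119274641-119274760 on the plus strand and is a coding exon of 120 bases in the interior of the gene. It makes up 3.30% of the 3633 bases of transcript NM_008064 and 3.57% of the 3363 bases of transcript NM_001159324, and both have 20 exons. The table gives values per transcript and not per exon, so reads from the other exons count towards the knock-out values. The exon is shown because it is the base of the genotype, with its bases in capitals and 20 bases of each adjoining exon in lower case.
Gaa exon 6: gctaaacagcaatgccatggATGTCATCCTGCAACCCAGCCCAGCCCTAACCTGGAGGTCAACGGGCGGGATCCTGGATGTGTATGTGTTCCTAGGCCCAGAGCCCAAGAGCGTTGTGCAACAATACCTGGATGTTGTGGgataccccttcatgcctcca

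The 2 Gaa transcripts in the table differ at their first exon, which has 336 bases in NM_008064 and 66 in NM_001159324, and share the other 19 exons. NM_008064 had 2.97, 2.59, 2.78, 2.59 and 2.61 RPKM in ko1 to ko5, against 37.4, 30.9, 33.4 and 30.8 RPKM in wt1 to wt4. NM_001159324 had 0.673, 0.815, 0.329, 0.915 and 0.941 RPKM in ko1 to ko5, against 18.6, 16.4, 14.8 and 15.2 RPKM in wt1 to wt4. Both transcripts were lower in every knock-out library, and NM_001159324 was the lesser one in all 9. In a fit over all 13159 transcripts tested, of which 43.2% were called (31.0% higher and 12.2% lower), the log2 change was -3.56 for NM_008064 (SE 0.07, adjusted p = 7.1e-10) and -4.35 for NM_001159324 (SE 0.23, adjusted p = 2.7e-07). On this scale the change of NM_001159324, the lower one, is understated the more.

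The make-up of the Gaa signal also differed by genotype. NM_001159324 took 18.5%, 24.0%, 10.6%, 26.1% and 26.5% of the summed Gaa RPKM in ko1 to ko5, against 33.2%, 34.7%, 30.7% and 33.0% in wt1 to wt4. The knock-out share was lower in every library and more scattered, at 21.1% ± 6.70 against 32.9% ± 1.67 (SD, n = 5 and 4). The difference was -11.8 percentage points, with an exact two-sided permutation p of 0.016. Of 1047 genes with 2 transcripts that both averaged 0.5 RPKM or more, 9.17% had shares that did not overlap between the genotypes. The lowest share was that of ko3, the shallowest library, in which NM_001159324 rested on about 19.6 reads. As the transcripts share 19 exons, their split is an estimate from few reads at the first exon, and the effect of depth on it was not tested.

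**Figure D2:**
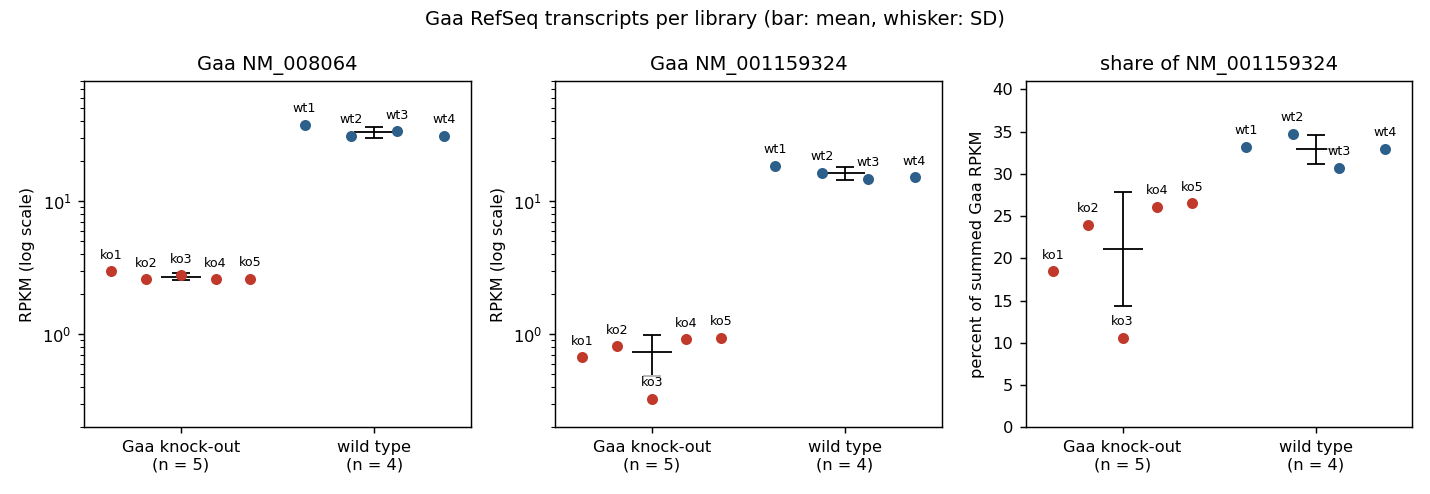
RPKM of the 2 Gaa RefSeq transcripts on log axes and the percent of the summed Gaa RPKM taken by NM_001159324, per library, with Gaa knock-out left of wild type, bars at the mean and whiskers of 1 SD. Both transcripts are lower in the knock-out, and the share of NM_001159324 is 10.6% to 26.5% there and 30.7% to 34.7% in the wild type.

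Stbd1, held to be a glycogen carrier, rose. Its level was 28.8, 30.3, 32.9, 30.7 and 29.2 RPKM in ko1 to ko5, against 12.7, 13.2, 18.6 and 18.0 RPKM in wt1 to wt4. Every knock-out value lay above every wild-type value. The mean was 30.4 ± 1.63 RPKM in the knock-out and 15.6 ± 3.11 RPKM in the wild type (SD, n = 5 and 4), a rise of 1.96-fold with a 95% interval of 1.66 to 2.32 (log2 change 0.97, SE 0.11, limma adjusted p = 2.5e-05, exact permutation p = 0.0079). Its log2 change exceeded that of 94.9% of tested genes and was 0.85 above that of the median gene. The knock-out libraries were close together, with a coefficient of variation of 5.36%, against 19.9% in the wild type, where wt1 and wt2 (mean 13.0 RPKM) parted from wt3 and wt4 (18.3 RPKM). The log2 change was 0.73 without wt1 and wt2 and 1.22 without wt3 and wt4.

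Epm2a, which encodes laforin, fell. Its level was 16.3, 19.3, 18.5, 18.1 and 17.6 RPKM in ko1 to ko5, against 28.5, 26.9, 23.5 and 23.0 RPKM in wt1 to wt4. Every knock-out value lay below every wild-type value. The mean was 18.0 ± 1.11 RPKM in the knock-out and 25.5 ± 2.66 RPKM in the wild type (SD, n = 5 and 4), so the knock-out stood at 0.708 of the wild type on the log scale, with a 95% interval of 0.632 to 0.792 (log2 change -0.50, SE 0.07, limma adjusted p = 0.00018, exact permutation p = 0.0079). Relative to the median gene the change was -0.62, and 6.20% of tested genes had a lower one. The wild-type pairs differed here too, in the order opposite to Stbd1, with a mean of 27.7 RPKM in wt1 and wt2 and 23.3 RPKM in wt3 and wt4.

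Nhlrc1, which encodes malin, was low and overlapped between the genotypes. Its level was 2.57, 2.999, 2.95, 2.56 and 2.38 RPKM in ko1 to ko5, against 2.06, 2.39, 3.26 and 2.71 RPKM in wt1 to wt4. The wild types held both the lowest and the highest value. The knock-out to wild-type ratio was 1.04 with a 95% interval of 0.865 to 1.26 (log2 change 0.06, SE 0.12, limma adjusted p = 0.70, exact permutation p = 0.70). The values are thus compatible with no change and with a fall or rise within that interval. The sign was negative with the libraries centred on their median (-0.07), quantile normalized (-0.10) or set to equal totals (-0.09). These values rest on about 120 to 246 reads per knock-out library and 176 to 480 per wild-type library.

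The order of the levels changed with genotype. RPKM is scaled to length, so levels can be set side by side. In all 5 knock-out libraries the order was Stbd1, Epm2a, Gaa and Nhlrc1 from high to low, and in all 4 wild-type libraries it was Gaa, Epm2a, Stbd1 and Nhlrc1. No neighbours in either order overlapped over the libraries of a genotype. In the knock-out the closest were Gaa, from 3.11 to 3.64 RPKM, and Nhlrc1, from 2.38 to 2.999 RPKM. The ratio of Stbd1 to Gaa was 7.89 to 10.6 in ko1 to ko5, against 0.227 to 0.391 in wt1 to wt4. The ratio of Stbd1 to Epm2a, both glycogen-binding proteins, was 1.57 to 1.78 in knock-out libraries, against 0.445 to 0.792 in wild-type libraries. The ratio of laforin to malin transcripts, Epm2a to Nhlrc1, was 6.27 to 7.41 in knock-out libraries, against 7.22 to 13.9 in wild-type libraries, and the groups overlapped.

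**Figure D3:**
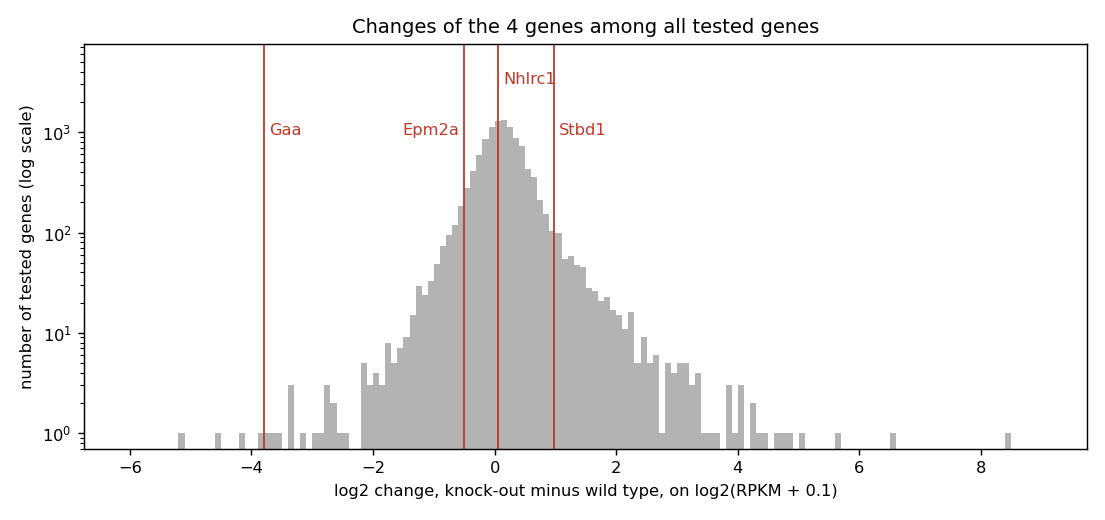
Histogram of the log2 change (knock-out minus wild type, on log2(RPKM + 0.1)) of the 11032 tested genes on a log count axis, with lines at the 4 genes. Gaa lies at the far left at -3.80, Stbd1 on the right flank at 0.97, Epm2a on the left flank at -0.50 and Nhlrc1 near the middle at 0.06.

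The promoter of Gaa is shown because, among the genes described, only Gaa carries the core letters of the lysosomal gene motif known as CLEAR. That of Stbd1, the gene that rose, is shown beside it. Gaa was the disrupted gene, so its fall is not read against its promoter. The sequences are from RefSeq on GRCm38.p6 and run from 250 bases before to 50 bases after the annotated start, 5′ to 3′ on the gene's strand. Gaa lies at chr11:119267713-119268012 (plus strand) and Stbd1 at chr5:92602801-92603100 (plus strand), and capitals mark CACGTG.
Gaa promoter: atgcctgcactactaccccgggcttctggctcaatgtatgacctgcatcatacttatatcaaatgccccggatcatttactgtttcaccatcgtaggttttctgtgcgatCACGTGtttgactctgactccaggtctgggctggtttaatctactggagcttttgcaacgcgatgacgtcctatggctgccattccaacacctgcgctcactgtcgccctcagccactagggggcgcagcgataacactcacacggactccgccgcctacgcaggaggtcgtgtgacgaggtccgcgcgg
Stbd1 promoter: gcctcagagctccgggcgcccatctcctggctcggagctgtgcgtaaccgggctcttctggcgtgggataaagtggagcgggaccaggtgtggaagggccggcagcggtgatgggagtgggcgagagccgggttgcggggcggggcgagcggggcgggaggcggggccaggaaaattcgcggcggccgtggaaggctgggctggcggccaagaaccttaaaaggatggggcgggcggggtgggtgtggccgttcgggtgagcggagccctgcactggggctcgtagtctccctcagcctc

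The search covered CACGTG, the core of the CLEAR motif bound by Tfeb and Tfe3, and CAGCTG, a site used by myogenic factors such as MyoD, on both strands. Each reads the same on both strands, and they do not overlap one another. All 4 genes matched a promoter. Gaa held CACGTG once, starting 140 bases before the start site, and 7.15% of 32851 promoters of the same length held it. The Stbd1, Epm2a and Nhlrc1 windows did not hold CACGTG, and none of the 4 held CAGCTG, which was in 16.3% of promoters. These are letters in a window and no evidence of binding or of its absence. The Gaa window was 55.3% G and C, below those of Stbd1 (70.7%), Epm2a (67.3%) and Nhlrc1 (64.0%).

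Genes beside Gaa on the chromosome were read next, as the knock-out altered that locus. Of the 20 nearest annotated genes, 10 on each side, 8 are protein-coding, 7 of these were in the table and 6 passed the filter on low values. Of these 6, 3 rose (Card14, Slc26a11 and Sgsh), 1 fell (Tbc1d16) and 2 did not pass the test (Eif4a3 and Endov), with a median log2 change of 0.25, where 37.0% of all tested genes were higher and 14.8% lower. The counts were 2 higher and 1 lower with centring or quantile normalization, 1 higher and 2 lower at equal library totals, and 1 higher and 1 lower without wt1 and wt2. Card14, a scaffold protein of NF-kappaB signalling known from skin, had 1.88, 2.04, 2.25, 1.85 and 1.70 RPKM in ko1 to ko5, against 0.169, 0.133, 0.141 and 0.145 RPKM in wt1 to wt4. Card14 rose 8.24-fold (log2 change 3.04, SE 0.12, limma adjusted p = 4.4e-09), and its log2 change was 1.36 with a pseudocount of 1 and 3.63 with a pseudocount of 0.01. Its wild-type mean of 0.147 RPKM was under the filter of 0.5 RPKM, which it passed only through the knock-out. The count of neighbours that rose was therefore partly set by the filter. The annotated span of Card14 overlaps that of Sgsh, which also overlaps that of Slc26a11, and the span of Tbc1d16 overlaps that of Ccdc40. No source used here says whether strand was counted. The spans run from gene start to gene end, and overlap of exons was not checked. Whether reads were shared between these genes was not tested.

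Between Gaa and Card14 in the table lies Eif4a3, a core subunit of the exon junction complex, at 5.19 to 6.97 RPKM in the knock-out and 6.13 to 7.30 RPKM in the wild type, which overlap (adjusted p = 0.53). Sgsh, the lysosomal sulphamidase, had 1.40 ± 0.101 RPKM in knock-out libraries, against 1.12 ± 0.179 RPKM in wild-type libraries (SD, n = 5 and 4, limma adjusted p = 0.037), a call that ended in 12 of 20 alternatives, among them the fits without wt1 (adjusted p = 0.12) and without any one of ko2 to ko5, wt2 and wt3. Slc26a11, an anion transporter of lysosomes, had 1.83 ± 0.186 RPKM in knock-out libraries, against 1.29 ± 0.301 RPKM in wild-type libraries (adjusted p = 0.012 by limma), and the call ended at equal library totals (0.067) and without wt1 and wt2 (0.14). Tbc1d16, which regulates Rab proteins, fell 1.36-fold to 5.32 RPKM, against 7.30 RPKM in the wild type (limma adjusted p = 0.00047). Ccdc40, upstream of Gaa, was at or below 0.0319 RPKM in every library and was not tested.

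**Figure D4:**
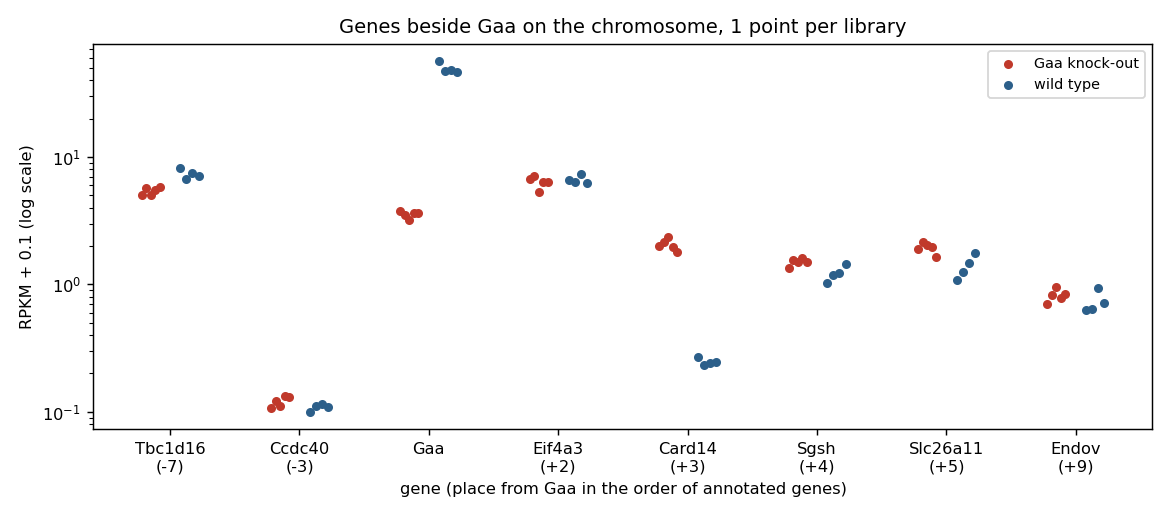
RPKM + 0.1 on a log axis for Gaa and the 7 measured genes nearest to it, 1 point per library, with Gaa knock-out left of wild type for each gene and the place in the order of annotated genes in parentheses. Card14, at place 3, is 1.70 to 2.25 RPKM in the knock-out and 0.133 to 0.169 RPKM in the wild type, while Eif4a3, at place 2, overlaps.

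Genes that bring the enzyme to lysosomes were measured in both genotypes. New acid alpha-glucosidase is tagged with mannose 6-phosphate, bound by its receptors and carried by Gga and AP-1 adaptors. Of 10 listed genes, all tested, 5 rose, none fell and 5 did not pass the test, a share near the 51.8% of all tested genes that were called (37.0% higher). The median log2 change was 0.21, where that of all tested genes was 0.12. The adaptor gene Gga2 rose 1.70-fold to 5.90 ± 0.151 RPKM, against 3.44 ± 0.232 RPKM in the wild type (SD, n = 5 and 4, limma adjusted p = 1.8e-06). Both receptor genes rose, Igf2r 1.34-fold (adjusted p = 0.00050) and M6pr 1.21-fold (adjusted p = 0.0023), and so did the adaptor gene Gga3 (1.25-fold) and Nagpa, the uncovering enzyme of the tag (1.31-fold). The phosphotransferase genes that set the tag, Gnptab and Gnptg, did not pass the test. With library totals set equal, 2 of the 10 were higher and 1 lower.

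Other alpha-glucosidases changed little. Of 5 listed, 4 were in the table and 3 passed the filter, of which 2 were called higher, against 37.0% of all tested genes. Ganab, the glucosidase of the endoplasmic reticulum that trims new glycoproteins, had 7.65 ± 0.597 RPKM in knock-out libraries, against 6.02 ± 0.436 RPKM in wild-type libraries (SD, n = 5 and 4, limma adjusted p = 0.0026). Ganc, the neutral enzyme closely related to it, had 9.05 ± 0.524 RPKM in knock-out libraries, against 8.001 ± 0.470 RPKM in wild-type libraries, with overlap (limma adjusted p = 0.034). Neither was called with library totals set equal, and the Ganc call also ended with centring and without any one of ko3, ko5, wt1 and wt2. Myorg did not pass the test, and Mgam, an enzyme of the gut, averaged 0.0611 RPKM in the knock-out and 0.00906 RPKM in the wild type.

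Among 16 genes that laforin and malin act on or with, 8 rose, 3 fell and 5 did not pass the test, not far from the 37.0% higher and 14.8% lower of all tested genes. The median log2 change was 0.19. With centring 4 were higher and 4 lower, and with quantile normalization 4 and 6, so the balance depended on scaling. Gbe1, the branching enzyme, rose 3.16-fold, with 35.3, 35.3, 39.4, 28.4 and 42.6 RPKM in ko1 to ko5, against 11.6, 9.73, 12.8 and 11.3 RPKM in wt1 to wt4 (log2 change 1.66, SE 0.11, limma adjusted p = 3.5e-07). Ppp1r3c, the phosphatase-targeting subunit that malin marks for degradation, rose 1.62-fold (adjusted p = 0.0023), while the muscle subunit Ppp1r3a did not pass the test. Sqstm1, an autophagy receptor, rose 2.13-fold (adjusted p = 2.9e-07). Gys1, the muscle glycogen synthase, and its primer Gyg did not pass the test.

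The 3 listed subunits of AMPK, a kinase that binds glycogen through its beta subunit, moved in different directions. Its other subunits were not in the list. Prkaa1, the alpha 1 catalytic subunit, rose 2.02-fold to 5.27 ± 0.289 RPKM, against 2.58 ± 0.461 RPKM in the wild type. The more abundant alpha 2 subunit Prkaa2 fell to 33.8 ± 3.17 RPKM, against 41.2 ± 1.505 RPKM in the wild type. Prkab2, the beta 2 subunit that carries a glycogen-binding domain, fell to 58.7 ± 3.98 RPKM, against 99.5 ± 10.2 RPKM in the wild type (SD, n = 5 and 4 for all 3; limma adjusted p = 1.2e-05, 0.0043 and 7.7e-06).

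Partners of Stbd1 in the delivery of glycogen by autophagy, and Gpcpd1 for its starch-binding type of domain, were measured as a list of 11. Of these, 7 rose, 2 fell and 2 did not pass the test, against 37.0% higher and 14.8% lower over all tested genes. The median log2 change was 0.28, against 0.12 over all tested genes, and the counts were 5 and 2 with centring, quantile normalization or equal totals. Gabarapl1, the family member through which Stbd1 is known to bind autophagosomes, rose 1.37-fold to 24.2 ± 1.02 RPKM, against 17.6 ± 1.12 RPKM in the wild type (SD, n = 5 and 4, limma adjusted p = 4.6e-05). Gabarap rose 1.64-fold and Map1lc3a, another autophagosome tag, 2.59-fold (limma adjusted p = 8.6e-07 and 6.8e-08). Gpcpd1, a phosphodiesterase that shares the starch-binding type of domain with laforin and Stbd1, fell 2.45-fold to 45.4 ± 3.81 RPKM, against 111 ± 8.96 RPKM in the wild type (SD, n = 5 and 4, limma adjusted p = 8.8e-08). Ulk1, the kinase that starts autophagy, fell 1.57-fold. Of the 3 measured genes with this domain, Stbd1 thus rose and Epm2a and Gpcpd1 fell, a grouping made after the values were seen.

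Regulators and contents of the lysosome completed the set. Of 10 genes, 7 rose, 1 fell and 2 did not pass the test, where 37.0% of all tested genes were higher and 14.8% lower, with a median log2 change of 0.34 (5 and 2 with centring, quantile normalization or equal totals). Hexa rose 2.60-fold, Lamp1 1.80-fold, Ctsd 1.67-fold and Lamp2 1.64-fold, in each case without overlap (limma adjusted p from 1.9e-08 to 1.1e-05). The factors Tfeb and Tfe3 act on lysosomal genes. Tfe3 rose 1.295-fold (limma adjusted p = 0.0014). Tfeb was 1.19-fold higher (limma adjusted p = 0.028), a call that ended in 9 of 20 alternatives, among them all 3 scalings and the fits without any one of ko1, ko2, wt3 and wt4. Flcn, which restrains both, fell 1.22-fold (limma adjusted p = 0.014), and this call ended without wt1 and wt2 (0.18). Macrophages are rich in lysosomes. Of their 13 tested markers, 12 were higher in the knock-out and 1 did not pass the test, with a median log2 change of 1.23. Mpeg1, Adgre1 and Trem2 averaged 0.382, 0.368 and 0.194 RPKM in the wild type and passed the filter of 0.5 RPKM only through the knock-out. Itgam and Aif1, which overlapped between the genotypes, were under it. The count and the median were therefore partly set by the filter. Cd68, which rose most of the tested markers, averaged 6.82 RPKM in the knock-out and 0.865 RPKM in the wild type. The part of macrophages in the rise of lysosomal genes was not tested.

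**Figure D5:**
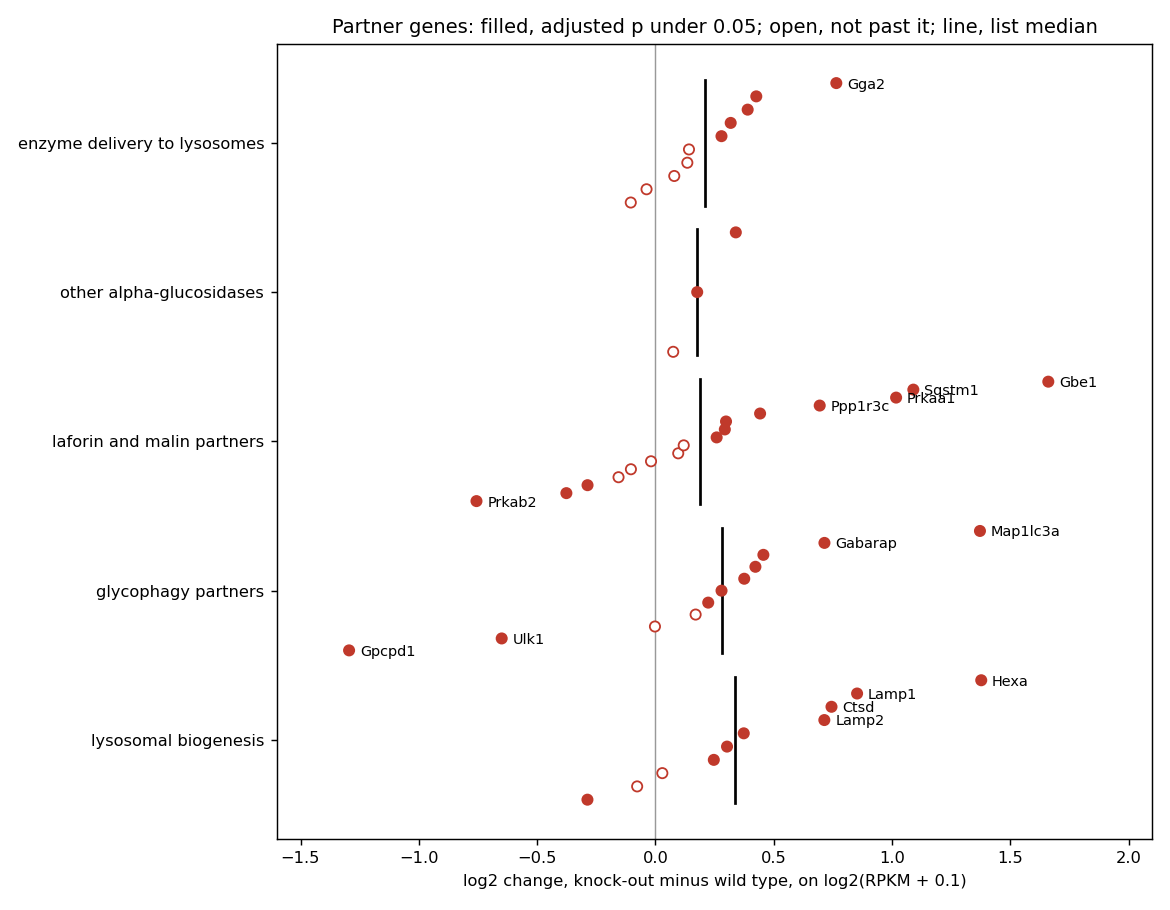
Log2 change (knock-out minus wild type) of the genes in 5 lists, 1 point per gene. Points are filled where the limma adjusted p is below 0.05 and open where it is not, with a line at each list median. Gbe1, Hexa and Map1lc3a lie farthest to the right and Gpcpd1 farthest to the left.

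Genes with the pattern most like each of the 4 were sought by Pearson's r of log2 values over the 9 libraries, which is dominated by the gap between genotypes, and the same r after subtraction of genotype means is given beside it. For Gaa the nearest were Pttg1 (0.998), Ovol1 (0.995) and Ccnk (0.995), and within genotypes these fell to 0.140, -0.0953 and 0.363. For Stbd1 they were Hspb8, a small heat shock protein (0.996 and 0.966 within genotypes), Wdyhv1 (0.996 and 0.965) and Prkaa1 (0.995 and 0.966). For Epm2a they were Shc2 (0.992 and 0.946), Pcgf5 (0.991 and 0.943) and Ubl3 (0.988 and 0.923), and for Nhlrc1 they were Ss18l1 (0.983 and 0.987), Cyb5b (0.957 and 0.958) and Dnajb5 (0.916 and 0.921). Prkaa1 had 5.16, 5.02, 5.76, 5.25 and 5.14 RPKM in ko1 to ko5, against 2.18, 2.18, 2.91 and 3.04 RPKM in wt1 to wt4. Like Stbd1 it was highest in ko3 and lower in wt1 and wt2 than in wt3 and wt4. Subtraction of genotype means does not remove a split of wt1 and wt2 from wt3 and wt4, so r within genotypes still carries it. The r values are descriptions of 9 libraries, and the best of so many genes are high by selection alone.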

How the data were processed

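Values were RPKM, reads scaled to transcript length and library size, which the authors deposited as 1 table with a line for each RefSeq transcript; its columns are single libraries. Per the submitters' processing notes, Partek 6.6, TopHat 1.3.2 and Bowtie 0.12.7.0 were used, with genome build mm9. Libraries came from Trizol RNA and a TruSeq kit, per the labels' protocols. What each tool did, the strand setting and any filter were not given in the sources used.

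Transcripts were summed per symbol, after 36 of 37 date-like symbols were restored through the accession. Count models do not apply to RPKM. Genes with a mean of at least 0.5 RPKM were tested on log2(RPKM + 0.1), a scale that understates changes of low genes, with limma 3.58.1 in R 4.3.3 (eBayes with trend, two-sided, Benjamini-Hochberg over all genes, threshold 0.05), 5 knock-out against 4 wild-type libraries. All 4 genes passed the filter. The 4 genes, both Gaa transcripts and the transcript share also got an exact permutation test. Depth was estimated from low values of genes with 1 transcript, of which 70.8% to 74.3% per library lay within 0.1 of a whole read, where chance gives 20%. It covers counting only. GENCODE and RefSeq annotation of GRCm38 gave lengths (22861 lines matched), exons, neighbours and promoters. Tables used Python 3.11.15, pandas 2.3.3 and numpy 2.4.6, and figures matplotlib 3.10.9. The model was tested on simulated data.

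The 4 genes and all lists were chosen with earlier results of these data known. Up to 4 genes per list with the smallest adjusted p were named by rule, with up to 6 neighbours of Gaa and the 3 genes most like each of the 4. Others were named after their values were seen. Alternatives were the pseudocount, filter, scaling, length trend, variance trend and left-out libraries, and every value column was used.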

Additional observations from a re-analysis of the deposited data

How the results depend on the processing

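Gaa, Stbd1, Epm2a and both Gaa transcripts kept direction and call under all 20 alternatives. The log2 change was -3.96 to -3.50 for Gaa, 0.73 to 1.22 for Stbd1, -0.68 to -0.37 for Epm2a (largest limma adjusted p 0.0025), -3.72 to -3.20 for NM_008064 and -4.53 to -3.32 for NM_001159324. The number of genes called, 5713, ran from 4653 to 6272. Its split of 4081 higher and 1632 lower depended on scaling, with 2769 and 2758 after centring on the median, 2644 and 3056 after quantile normalization and 2428 and 2821 at equal library totals. Nhlrc1 passed the threshold in none, with log2 changes from -0.14 to 0.26, the highest without wt3 and wt4 (limma adjusted p 0.085). It turned negative in 5: -0.066 centred, -0.10 quantile normalized, -0.092 at equal totals, -0.042 without wt1, and -0.14 without wt1 and wt2; the cause was not tested. The difference in transcript share was -10.7 points without wt1 and wt2 and -12.8 points without wt3 and wt4, and both had an exact permutation p of 0.095, where fewer libraries limit the test. Leaving out 1 library gave -13.1 to -9.13 points for the share (exact permutation p 0.029 to 0.036), and log2 changes of -3.83 to -3.74 for Gaa, 0.88 to 1.06 for Stbd1, -0.55 to -0.44 for Epm2a and -0.04 to 0.17 for Nhlrc1. For the 29 other genes recomputed, 544 of 580 values kept direction and call, 36 lost the call and 0 changed sign. No paired analysis was possible because the wild-type columns are numbered through while the labels number the wild types within each age, so the numbers do not link libraries. Among the 4 genes and the Gaa transcripts, the fewest estimated reads were behind NM_001159324 in the knock-out, at 19.6 to 116 per library.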
